A study of Mus musculus with 25 samples.

Results

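The nitric oxide synthases and the enzymes that compete with them for, or remake, their substrate were followed through the RNA of mouse sperm. The set holds 6 genes (Nos1, Nos2, Nos3, Arg1, Arg2 and Ass1), found by gene symbol among 47575 genes of the deposited table. The set was selected on the normalised counts of Nos2, which earlier results of the same libraries had shown to stand out in the sperm of males fed a Western diet with methyl donors. The level of Nos2 is therefore given as a description with no test, in every diet group, and the other 5 genes are tested.

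Sperm were swum up from sliced epididymides of C57BL/6J males. The males were virgin and 8 weeks old when the diets began, ate them for at least 8 weeks, were then used as studs and kept their diet until the sperm were taken. The control diet (CD) held 18% casein and 21% sugar, and the low-protein diet (LPD) held 9% casein and 24% sugar. The Western diet (WD) held 19% casein, 34% sugar, 20% milk fat and 0.15% cholesterol. The supplemented diets (MD-LPD and MD-WD) were LPD and WD with added methyl donors, which per kg came to 15 g of betaine, 7.5 g of methionine, 5 g of choline chloride, 15 mg of folic acid and 1.5 mg of vitamin B12. Each group had 5 males, named here by diet and male number (CD 10 is the library of male 10 fed CD). All males were of 1 inbred strain, and the labels name no transgene or deletion. LPD and WD were compared with CD to ask what a poor diet did to sperm RNA, and each supplemented diet with its own base diet to ask what the methyl donors did.

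Nitric oxide synthases turn arginine and oxygen into nitric oxide and citrulline. Nos1 encodes the neuronal enzyme, Nos3 the endothelial enzyme and Nos2 the inducible enzyme that macrophages make in response to cytokines and bacterial products. Nitric oxide made by the neuronal and endothelial enzymes is a short-range signal that raises cyclic GMP in target cells, while the inducible enzyme makes it in larger amounts and without a need for raised calcium. Arginases split the same arginine into ornithine and urea, Arg1 in the cytosol of liver and of alternatively activated macrophages, Arg2 in mitochondria. Ass1 encodes argininosuccinate synthase, which starts the return of citrulline to arginine. In mammalian sperm, nitric oxide is known for effects on motility and capacitation.

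Values are normalised counts, that is, reads per gene divided by a size factor for each library. Totals were 32455480 to 54108158 reads per library, and size factors ran from 0.642 to 1.50. All 12 sperm and spermatid markers had reads in every library. Of 12 leukocyte markers 11 or 12 had reads, and their summed level was 15494 to 59490 normalised counts in CD, 14230 to 73825 in LPD, 20178 to 54164 in MD-LPD, 16763 to 31036 in WD and 26290 to 57842 in MD-WD. Reads from other cells were thus present in all libraries, and in bulk RNA fewer cells of a type cannot be told apart from less RNA per cell. In 3 libraries the treatment field named another diet than the title (CD 15 as LPD, LPD 15 as MD-LPD and MD-LPD 15 as WD), and the title was followed. Further, 5 libraries were taken to stand apart from the rest (CD 10, LPD 15, MD-LPD 9, MD-LPD 11 and WD 11). They were listed by name and not by a rule given here. LPD 13, among the libraries with the fewest genes with a read (28451), was not listed. The effect of leaving out the 5 is given where it changed a direction, a call or a value by over 1.5 times.

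Per kilobase of exon, 3 of the 5 neighbouring pairs of members had an order shared by at least 20 of 25 libraries. The length took in the exons of all annotated transcripts, from 1 for Arg2 to 31 for Ass1, so the order depends on the annotation. By mean count without length, Ass1 (784) and Nos1 (572) lay above Arg2 (317). Antisense genes shared 41.8% of the exonic bases of Arg2. Arg2 had a mean of 218 ± 115 normalised counts per kb (SD, n = 25 libraries) and Ass1 of 210 ± 70.0. These neighbours did not differ beyond their spread, with Arg2 above Ass1 in 16 of 25 libraries. Nos1 followed at 50.4 ± 21.2 per kb and was below Ass1 in 25 of 25 libraries. Arg1 had a mean of 20.2 ± 42.8 per kb, an SD above its mean, and lay below Nos1 in 23 of 25 libraries. Nos3, at 9.31 ± 4.31 per kb, was below Arg1 in 13 of 25 libraries, so that this pair had no clear order. Nos2 was the lowest member at 4.5 ± 5.07 per kb and lay below Nos3 in 20 of 25 libraries. In these sperm preparations the neuronal form was thus the most abundant of the synthase transcripts, and mitochondrial arginase transcript was more abundant per kb than that of the cytosolic form.

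Nos2 (ENSMUSG00000020826) lies on the plus strand of chromosome 11 from 78811613 to 78851080 of GRCm39, with 4439 exonic bases. No read was assigned to it in any of the 5 CD libraries, which together held 180332962 reads. For a single CD library, 3 reads set the floor of detection, which covers counting error only. In LPD sperm, Nos2 was at 32.9 normalised counts in male 10 and 15.5 in male 15, and at 0 in males 11, 12 and 13. MD-LPD sperm gave 62.1, 61.1 and 15.9 in males 10, 14 and 15, and 0 in males 9 and 11. All WD libraries held reads of the gene, with 47.1, 33.2, 10.7, 29.1 and 10.1 normalised counts in males 10, 11, 12, 13 and 14. The same was true of MD-WD, where males 9, 10, 12, 14 and 16 had 47.2, 19.0, 70.8, 22.7 and 22.

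Every WD and MD-WD library therefore lay above every CD library, whereas LPD and MD-LPD overlapped CD at 0, and WD and MD-WD overlapped each other. Among 28311 genes with a mean of at least 5, the groups did not overlap, with the diet higher, for 1.29% in WD against CD and 1.93% in MD-WD against CD. These shares are background only, since Nos2 was chosen for this contrast. The group means were 36.3 ± 22.4 in MD-WD, 26.0 ± 15.8 in WD, 27.8 ± 31.5 in MD-LPD and 9.68 ± 14.6 in LPD (SD, n = 5 each). Because CD was at 0, a fold can only be a lower bound, set against a floor of 3 reads over the whole CD group. That pooled floor, 0.576 normalised counts, covers counting error only and not the spread between males. For single CD libraries the floor was 2.56 to 3.49. The bounds hold only if a listed 0 means that no read overlapped the gene, which was not analysed. They would be lower if the CD libraries held reads that were not listed. On that basis, for counting error alone, the mean of Nos2 in these MD-WD libraries was at least 63.1-fold that of these CD libraries. The bounds were 45.2-fold for WD, 48.3-fold for MD-LPD and 16.8-fold for LPD. The LPD bound rested on LPD 10 and LPD 15 alone. It dropped to 6.74 without LPD 10, which left LPD 15, a library whose treatment field named another diet. With groups taken from the treatment field the bound was 8.93 for LPD, 33.1 for WD and 49.3 for MD-WD, and scaling to equal totals gave 10.6, 27.4 and 45.4. MD-WD was 1.40 times WD and MD-LPD 2.87 times LPD, with overlapping ranges in both pairs.

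**Figure D1:**
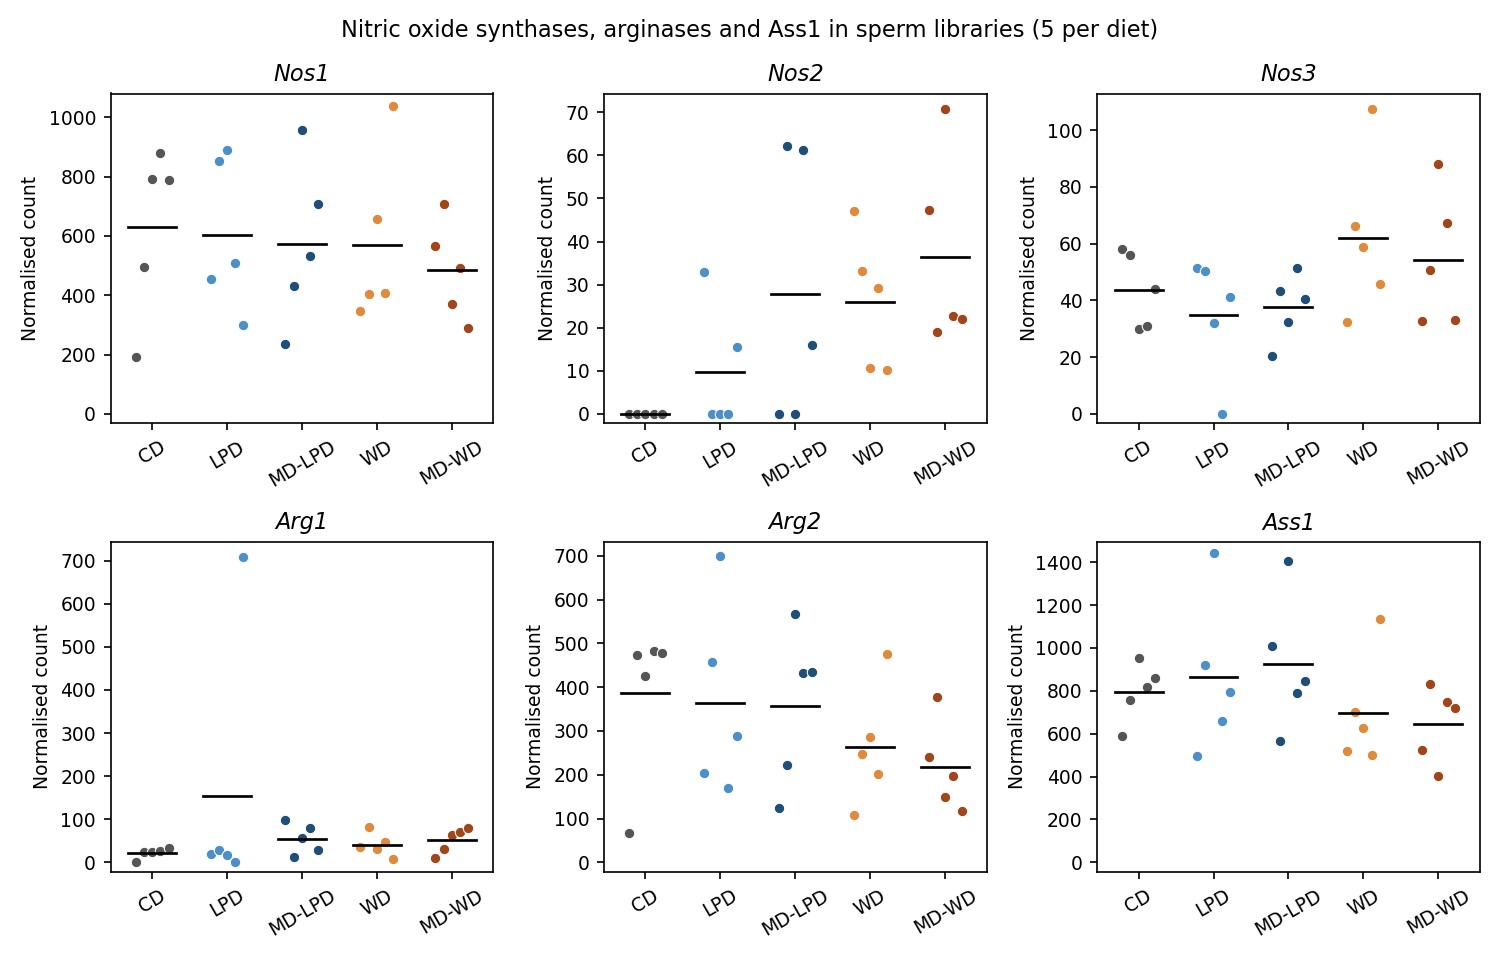
Normalised counts of the 6 genes in each of the 25 sperm libraries, by diet group, each gene on its own linear scale. Points are single males and bars are group means. Nos2 sits at 0 in all 5 CD libraries and above 0 in all WD and MD-WD libraries, while the other genes overlap between all groups.

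The reads behind these values were few. In raw numbers, MD-WD libraries held 42, 25, 49, 27 and 22 reads of Nos2, and WD libraries 32, 28, 10, 23 and 15. Across all libraries, 15 of 25 held reads, the smallest number was 10 and the highest 64, and no library had between 1 and 9. Such a gap was not rare at this level: of 123 genes with a mean of 10 to 40 and at least 10 libraries at 0, 21.1% also had no library with 1 to 9 reads. All CD libraries were at 0 for 16 of 5950 genes of that mean (0.269%). Nos2 was the only gene among the 28311 with 0 in all CD libraries and reads in all 10 WD and MD-WD libraries, a pattern defined after its values had been seen. Whether a listed 0 means that no read overlapped the gene was not analysed here.

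Leukocyte markers were set beside Nos2, since macrophages are its known source. CD 10, MD-LPD 9 and LPD 13 had leukocyte marker sums of 59490, 54164 and 41617 and no read of Nos2. They were also the libraries with the fewest genes with a read, 26859, 28871 and 28451, where every other library had at least 31502. The part of this in their zeros of Nos2 was not tested. LPD 15, with the highest leukocyte sum at 73825, had 15.5 normalised counts of Nos2. Over the 25 libraries the correlation of Nos2 with the leukocyte sum was r = 0.18 (rho = 0.35, and 0.27 without the 2 farthest libraries), and with the endothelial sum 0.14. The part of leukocyte RNA in the Nos2 levels was not tested. The correlation was higher with the sperm and spermatid sum, at r = 0.55 (rho = 0.59, and 0.60 without the 2 farthest libraries), and with the neuron sum, at 0.54 (rho = 0.55, and 0.52 without the 2 farthest). The sperm and spermatid sum also differed between diets, from 220184 to 483718 in CD, 216339 to 1375089 in WD and 292783 to 1481855 in MD-WD, and its part in the Nos2 levels was not tested. These correlations, with r on the log2 scale, are descriptions across libraries that share a size factor within each library.

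The genes whose levels followed Nos2 most closely over the 25 libraries were Gm12896 (r = 0.87), Gm28411 (0.85), 1700025F24Rik (0.84), Gm36862 (0.84) and Aunip (0.83). These are a processed pseudogene, 3 long noncoding RNAs and 1 protein-coding gene. Their rank correlations were 0.82 to 0.87, and r without the 2 libraries highest in Nos2 was 0.81 to 0.85. Within the 15 libraries that held Nos2 reads, their r was 0.57 to 0.72. The likeness was thus lower once libraries at 0 were left aside.

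Among the constitutive synthases, Nos1 (ENSMUSG00000029361) lies on the plus strand of chromosome 5 from 117918971 to 118096905. CD libraries 10, 11, 12, 14 and 15 had 193, 496, 791, 880 and 790 normalised counts of it, and LPD libraries 10, 11, 12, 13 and 15 had 456, 852, 891, 510.3 and 301. MD-LPD libraries 9, 10, 11, 14 and 15 had 235, 431, 959, 534 and 707, and WD libraries 10 to 14 had 346, 404, 658, 407 and 1038. In MD-WD males 9, 10, 12, 14 and 16 it was at 566, 709, 371, 493 and 290. All groups overlapped, with the lowest value of all in a control male (CD 10) and the highest in WD 14. Means ran from 630 ± 284 in CD to 486 ± 164 in MD-WD. The log2 difference of MD-WD from CD was −0.26 (SE 0.43, 95% interval −1.15 to 0.63), which did not pass the test (limma, adjusted p = 0.769). Without CD 10 it was −0.64 for Nos1 (limma, adjusted p = 0.368).

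Nos3 (ENSMUSG00000028978) lies on the same chromosome, plus strand, from 24569787 to 24589475. Its CD libraries, in the order of males given above, had 58.1, 56.1, 29.8, 31.0 and 44.0 normalised counts, and its LPD libraries 51.3, 50.4, 32.1, 0 and 41.0. MD-LPD libraries had 20.2, 43.3, 32.3, 51.6 and 40.5, WD libraries 32.4, 66.4, 58.9, 108 and 45.6, and MD-WD libraries 32.6, 50.8, 88.1, 67.2 and 33.0. Most values lay within a narrow band, with WD 13 at the top and LPD 13 as the only library at 0. LPD 13 had 28451 genes with a read, among the fewest of all libraries, and the part of this in its 0 was not tested. The CD mean of 43.8 ± 13.4 compared with 62.2 ± 28.5 for WD and 54.3 ± 23.7 for MD-WD, with overlapping ranges. The log2 differences from CD were 0.44 for WD (SE 0.73) and 0.25 for MD-WD, and their intervals, −1.08 to 1.96 and −1.27 to 1.77, left room for changes in either direction. LPD gave −1.07 (SE 0.73), the lowest unadjusted p of the 5 tested members at 0.157 (limma, adjusted p = 0.732), and 0.027 without LPD 13. Antisense genes overlap 26.7% (Gm15587) and 5.94% (Atg9b) of the exonic bases of Nos3, and the strand setting of the counting is not given in the sources used here, so reads of these pairs may not have been separated.

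Arg1 (ENSMUSG00000019987) lies on the minus strand of chromosome 10 from 24791118 to 24803817. The antisense gene Gm36172, itself at or near 0, overlaps 23.8% of its exonic bases. Arg1 was low in control sperm, at 0, 24.4, 23.0, 26.5 and 32.5 normalised counts. LPD libraries had 19.7, 27.8, 16.7, 0 and 708, and MD-LPD libraries 98.1, 11.7, 56.5, 80.2 and 28.2. A single library, LPD 15, stood far above all others, and it was also the library with the highest leukocyte sum and 1 of the 3 whose treatment field named another diet. In WD, males 10 to 14 had 36.8, 83.0, 29.98, 46.8 and 6.71, and MD-WD libraries had 10.1, 31.9, 63.6, 70.5 and 80.0. MD-LPD, WD and MD-WD means were 55.0 ± 35.7, 40.7 ± 27.9 and 51.2 ± 29.2 against 21.3 ± 12.4 in CD, with overlapping ranges throughout. The corresponding log2 differences from CD were 1.65, 1.20 and 1.59 (SE 1.20 each), and none passed (limma, adjusted p = 0.999, 0.579 and 0.554). Without the 5 libraries that stood apart, among them CD 10 where Arg1 was at 0, these differences were 0.19, −0.094 and 0.63. For LPD the log2 difference was 0.75 with all libraries, −0.48 without LPD 15, −1.43 without the 5 libraries that stood apart and −0.16 without the 3 libraries of disputed diet, and edgeR on the counts gave 2.84 with all libraries (adjusted p = 0.461). The correlation of Arg1 with the leukocyte sum was r = 0.14, and 0.72 without CD 10 and LPD 13, the 2 libraries farthest from the median and those at 0, with LPD 15 kept. CD 10 and LPD 13 also had the fewest genes with a read of all libraries, 26859 and 28451. Neither the part of this nor that of leukocyte RNA in the Arg1 values was tested.

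Arg2 (ENSMUSG00000021125) lies on the plus strand of chromosome 12 from 79177524 to 79203075. In CD it was at 67.4, 474, 426, 483 and 478 normalised counts, and in LPD at 204, 457, 700.3, 170 and 289. MD-LPD libraries had 125, 223, 567, 433 and 436, WD libraries 107, 247, 286, 201 and 475, and MD-WD libraries 242, 378, 149, 198 and 118. The CD mean was 386 ± 180, with 263 ± 136 for WD and 217 ± 102 for MD-WD. Without the low CD 10, the 4 other CD libraries lay between 426 and 483, above all MD-WD libraries and all WD libraries but WD 14, yet with CD 10 the groups overlapped. The log2 difference from CD was −0.66 in MD-WD (SE 0.54, interval −1.78 to 0.46) and −0.42 in WD (interval −1.55 to 0.70), and neither passed (limma, adjusted p = 0.570 and 0.668). Without CD 10 these differences of Arg2 were −1.21 and −0.98, still short of the test (limma, adjusted p = 0.171 and 0.302). The antisense genes Vti1b and Gm48780 overlap 33.8% and 7.97% of its exonic bases, and over the 25 libraries Arg2 correlated with them at r = 0.31 and 0.56.

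Ass1 (ENSMUSG00000076441), on the plus strand of chromosome 2 from 31352181 to 31410862, varied least of the members relative to its mean and overlapped no other gene's exons. Its CD libraries had 589, 758, 952, 817 and 861 normalised counts, and its LPD libraries 497, 919, 1442, 661 and 794. MD-LPD libraries had 1009, 566, 1407, 789.9 and 847, WD libraries 517, 700.5, 625, 501 and 1134, and MD-WD libraries 522, 831, 400.3, 746 and 720. Both low-protein groups included the highest values, in LPD 12 and MD-LPD 11, and MD-WD 12 had the lowest. Relative to CD at 796 ± 135, the mean was 644 ± 177 in MD-WD and 924 ± 314 in MD-LPD, with log2 differences of −0.34 (interval −0.92 to 0.25) and 0.17 (interval −0.42 to 0.76). Neither passed the test (limma, adjusted p = 0.576 and 0.999). The narrow SE of 0.28 made Ass1 the member for which a change was bounded best.

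Over the 5 tested genes and 6 comparisons, 0 of 30 differences passed at an adjusted p under 0.05 in limma, edgeR or DESeq2, and 0 had an unadjusted limma p under 0.05. The share of all 28311 genes called by adjusted p was 0% in limma and in edgeR for each comparison, and by DESeq2 0.162% in LPD against CD, 0.0636% in MD-LPD against CD, 0.495% in WD against CD, 0.24% in MD-WD against CD, 0.0565% in MD-LPD against LPD and 0.053% in MD-WD against WD. In the same order, the share of genes with an unadjusted limma p under 0.05 was 8.56%, 3.22%, 16.3%, 10.4%, 1.59% and 5.55%. The members thus showed no call in data with few or no calls elsewhere. The effect of the supplement did not differ detectably between the base diets either. Its difference, WD background minus LPD background, was −1.02 for Nos3 (SE 1.03, interval −3.17 to 1.13), −0.52 for Arg1 and between −0.22 and −0.068 for the others, all with an adjusted p of 1 in limma, where 1.07% of genes had an unadjusted p under 0.05 and 0% passed.

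**Figure D2:**
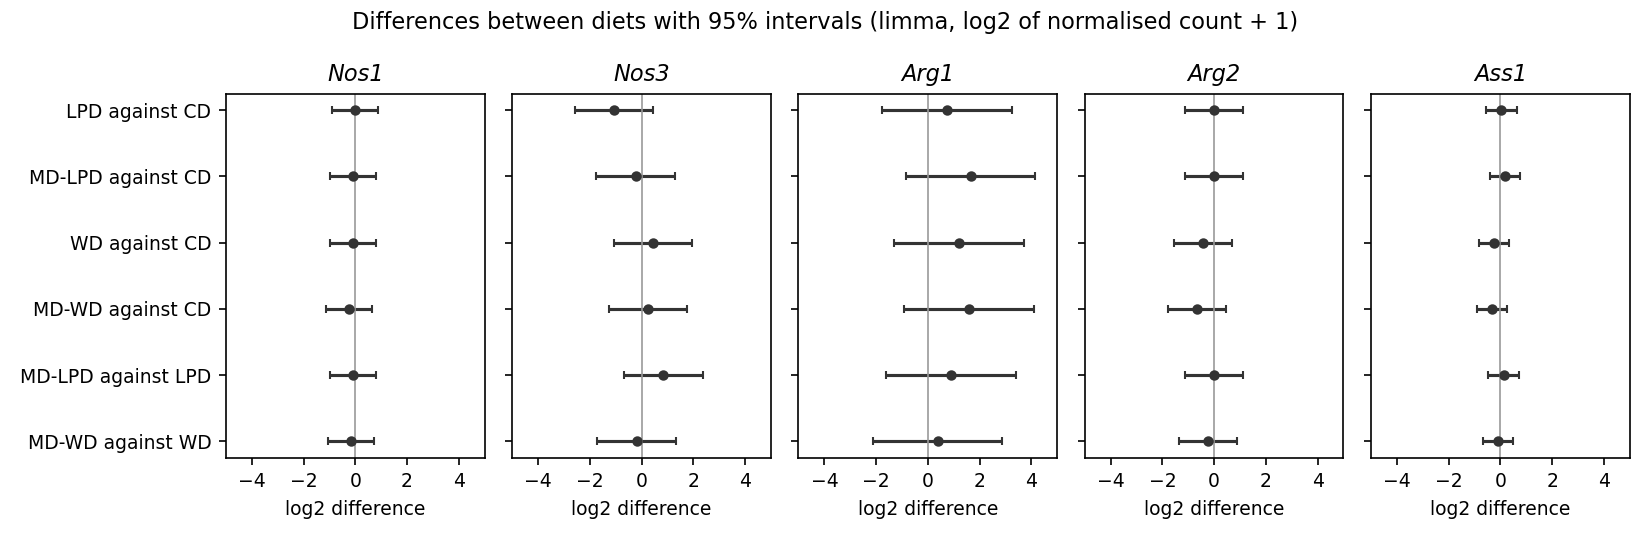
Log2 differences of the 5 tested genes in the 6 diet comparisons, from normalised counts plus 1 (limma). Points are the fitted differences and lines their 95% intervals, with a vertical line at no difference. Each of the 30 intervals includes 0, from the narrow ones of Ass1 (SE 0.28) to the wide ones of Arg1 (SE 1.20).

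Nos1, Arg2 and Ass1 varied together between libraries. On the log2 scale, Nos1 and Arg2 had a correlation of r = 0.88 over the 25 libraries (rho = 0.86, and 0.82 without the 2 farthest libraries). That of Arg2 and Ass1 was 0.66, and that of Nos1 and Ass1 0.55. Nos2 went the other way from Ass1, with r = −0.61 (rho = −0.67, and −0.69 without the 2 farthest). Both Nos1 and Arg2 were lower where leukocyte and endothelial markers were higher, with r of −0.83 and −0.74 for Nos1 and of −0.74 and −0.83 for Arg2. With the neutrophil sum r was positive for both, at 0.71 and 0.72, but Ltf alone made up 98.9 to 99.9% of that sum, so this was the relation to a single gene. Pecam1 made up 11.1 to 78.7% of the endothelial sum, and Crisp1 60.3 to 84.1% of the epididymal epithelium sum. Nos1, Arg2 and Ass1 also had a high correlation with the size factor of the library (0.78 for Nos1, 0.77 for Arg2 and 0.76 for Ass1), and Ass1 went against the sperm and spermatid sum at r = −0.85. CD 10, lowest of 25 in Nos1 and Arg2, had a leukocyte sum of 59490 where the other CD libraries had 15494 to 21934, and an epididymal epithelium sum of 127523 where the others had 377665 to 447058. How far the mixture of cells set these levels was not tested. For Nos3, r with the marker sums was at most 0.37 in size over 25 libraries. Over the 24 libraries where it had reads, r was 0.43 with the sperm and spermatid sum and −0.37 with the liver sum.

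**Figure D3:**
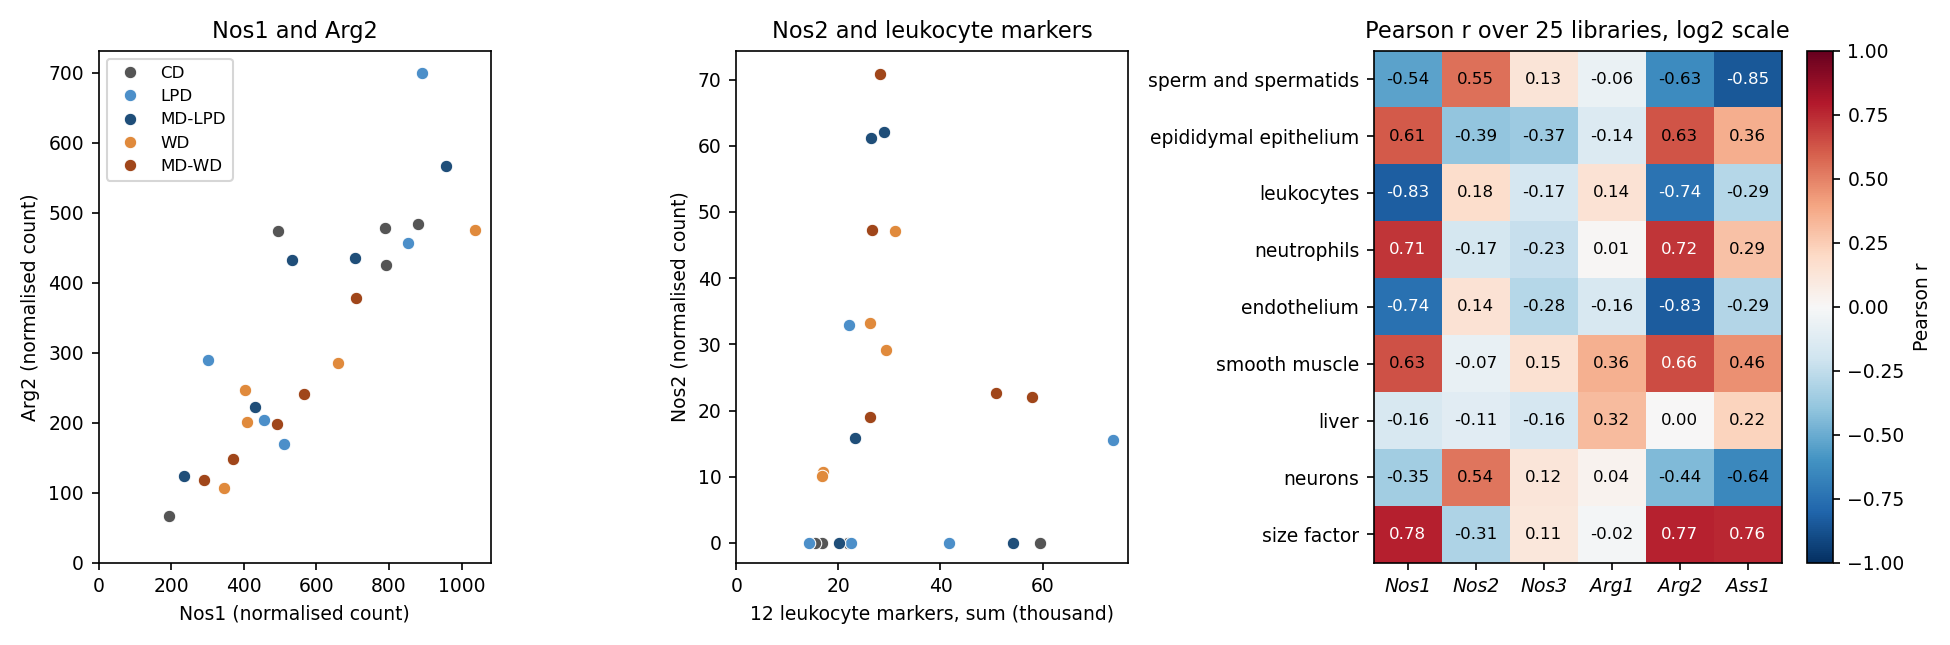
Arg2 against Nos1 (left) and Nos2 against the summed level of 12 leukocyte markers (middle), as normalised counts of the 25 libraries on linear scales, coloured by diet, and Pearson r of each gene with marker sums and the size factor on the log2 scale (right, red positive, blue negative). Nos1 and Arg2 rise together (r = 0.88 on the log2 scale), and Nos2 has libraries at 0 at low and high leukocyte sums (r = 0.18 on the log2 scale).

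Over the 25 libraries, the genes most like Arg1 were Mxd3 (r = 0.86), Hk3 (0.84), Gm47863 (0.81), Gm22362 (0.81) and Rprml (0.80), with rank correlations of 0.44 to 0.66 and r of 0.79 to 0.88 without the 2 libraries highest in Arg1. Over the 23 libraries with Arg1 reads, r was 0.47 to 0.65, so the likeness rested largely on the 2 libraries at 0. Those most like Nos3 were Abca4 (0.90), an unnamed gene (ENSMUSG00000102817, 0.90), Tmem225 (0.89), Gm11282 (0.89) and Or4m1 (0.89). The latter likeness rested largely on LPD 13, where Nos3 was at 0, since over the other 24 libraries r was 0.40 to 0.61.

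Around the members, genes of the arginine and nitric oxide pathways were counted from lists drawn up with earlier results of these data known, and no gene of any list passed the test in any comparison. In the urea cycle and arginine supply, 10 of 11 genes were tested, and in WD against CD 6 were higher and 4 lower, with 1 in each direction at an unadjusted p under 0.05, where 16.3% of all genes had such a p (median log2 difference 0.27 against 0.03 over all genes). Nags, which makes the activator of the first urea cycle enzyme, had the lowest p, at 1.44 ± 2.37 normalised counts in CD and 29.9 ± 22.1 in WD (log2 difference 3.71, SE 1.07, limma adjusted p = 0.220). Slc7a1, the main carrier of arginine into cells, was at 2726 ± 357 in CD and 1994 ± 435 in WD (−0.47, SE 0.21, adjusted p = 0.285). Of the genes that use arginine and ornithine, 14 of 15 were tested, and 7 were higher and 7 lower in both LPD and MD-WD against CD. Gatm, which starts creatine synthesis from arginine, gave the lowest p in this list, with 164 ± 27.0 in CD and 411 ± 312 in LPD (1.01, SE 0.34, adjusted p = 0.561). Without LPD 15 the difference of Gatm was 0.65, and without the 3 libraries of disputed diet 0.57.

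Nitric oxide synthases need tetrahydrobiopterin as a cofactor, and of its 7 synthesis and recycling genes 2 were higher and 5 lower in WD and in MD-WD against CD. Gch1, which controls the synthesis of the cofactor and which cytokines induce together with Nos2 in many cells, had 319 ± 181 normalised counts in WD against 1122 ± 1097 in MD-WD (log2 difference 1.59, SE 0.71, limma adjusted p = 0.896). CD stood between them at 857 ± 1366, an SD above its mean, with LPD at 341 ± 156 and MD-LPD at 588 ± 422. Of 13 regulators of the synthases, among them calmodulin genes and the Ddah genes that clear methylated arginine inhibitors, 1 was higher and 12 lower in MD-WD than in WD, none at an unadjusted p under 0.05, with a median of −0.11. Calm3, a gene of the calmodulin that activates the constitutive enzymes, had the lowest p of this list, at 2050 ± 199 in CD and 3144 ± 1048 in LPD (0.56, SE 0.19, adjusted p = 0.561).

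Downstream of nitric oxide, 9 genes of the soluble guanylate cyclase and cyclic GMP pathway were measured. In LPD against CD 7 were higher and 2 lower, and 5 had an unadjusted p under 0.05 (Gucy1a1, Gucy1b1, Prkg1, Prkg2 and Pde5a), where 4.8% of all genes were higher at that p. Their median was 0.63 against −0.04 over all genes. In the same comparison 8 of 9 endothelial markers were higher, 5 at that p with a median of 0.67, as were 10 of 12 leukocyte markers, 4 at that p with a median of 0.68, and their part in the result was not tested. The 5 became 2 when the 3 libraries of disputed diet or the 5 that stood apart were left out. Against CD, 7 of the 9 genes were also higher in WD (median 0.41), 6 in MD-WD (0.17) and 5 in MD-LPD (0.16). Of these, 3, 3 and 2 had an unadjusted p under 0.05, where 16.3%, 10.4% and 3.22% of all genes had it in either direction. Gucy1b1, the beta subunit of the nitric oxide receptor, was at 11.8 ± 12.4 in CD and 38.7 ± 32.6 in LPD (log2 difference 2.27, SE 0.80, limma adjusted p = 0.561), and at 34.5 ± 24.3 in MD-LPD (2.39, adjusted p = 0.999). Without the 5 libraries that stood apart these differences of Gucy1b1 were 1.29 and 1.48. Adh5, which breaks down S-nitrosoglutathione, was the most abundant gene of the list and was at 6832 ± 2264 in CD.

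Inducers of Nos2 were a separate list of 13 genes, covering cytokines, their receptors and the transcription factors of interferon and NF-kB signalling. In MD-WD against WD, 13 of 13 were higher, with a median of 0.72 against −0.03 over all genes, and 6 had an unadjusted p under 0.05 (Tnf, Il1b, Irf1, Nfkb1, Ifngr1 and Irf8), where 4.76% of all genes were higher at that p. None passed after adjustment. Tnf, a cytokine that induces Nos2 in macrophages, was at 78.5 ± 31.8 normalised counts in WD (range 47.1 to 125) and 252 ± 81.6 in MD-WD (range 182 to 388), a log2 difference of 1.71 (SE 0.39, limma adjusted p = 0.896). CD stood between them at 134 ± 112, and its highest library, at 332, was within the range of MD-WD. Il1b had 240 ± 145 in WD and 638 ± 266 in MD-WD, and Irf1, a transcription factor of the interferon response, 577 ± 109 and 1042 ± 460.

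The same comparison of 9 genes of classically activated macrophages, which share Tnf and Il1b with the inducers, gave 8 higher, 6 at an unadjusted p under 0.05 and a median of 1.38. Ptgs2, an inducible enzyme of prostaglandin synthesis and the most abundant gene of that list, was the 1 that was not higher, at 655 ± 267 in WD and 587 ± 139 in MD-WD, with 1157 ± 449 in CD (log2 difference of MD-WD from CD −0.92, SE 0.56, limma adjusted p = 0.505). Other markers differed in MD-WD against WD too. Of 7 epididymal epithelium markers 6 were lower, 2 at an unadjusted p under 0.05, where 5.55% of all genes had such a p in either direction. Their median was −0.69, and their summed level had a median of 374289 in WD and 182900 in MD-WD. Of 12 leukocyte markers 10 were higher, 1 at that p, with a median of 0.18. All 12 sperm and spermatid markers were lower, 0 at that p, with a median of −0.25. Of 8 neuron markers 6 were lower, 1 at that p, with a median of −0.26. The part of the cell mixture in the inducer result was not tested. MD-WD 14 and 16 had the highest leukocyte sums of their group, 50828 and 57842. Without these libraries 11 of 13 inducers were higher, 2 at an unadjusted p under 0.05, with a median of 0.24, and 2 macrophage genes were at that p, with a median of 0.87. In that fit 209 of 28311 genes had such a p in either direction, where 1570 did with all libraries. MD-WD 14 and 16 had 22.7 and 22 normalised counts of Nos2, where their group had a median of 22.7 and a mean of 36.3. MD-WD 10, with the lowest leukocyte sum of the group (26290), had 19.0. In WD against CD, which shares the WD libraries, 12 of 13 inducers were lower, 1 at an unadjusted p under 0.05, where 16.3% of all genes had such a p in either direction. In MD-LPD against LPD, 8 of 13 were higher, with a median of 0.07. Of these 1 was at an unadjusted p under 0.05, where 1.59% of all genes had such a p in either direction. In MD-WD against CD, 10 of 13 inducers and 8 of 9 macrophage genes were higher, 3 of each list at an unadjusted p under 0.05, where 5.97% of all genes were higher at that p.

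**Figure D4:**
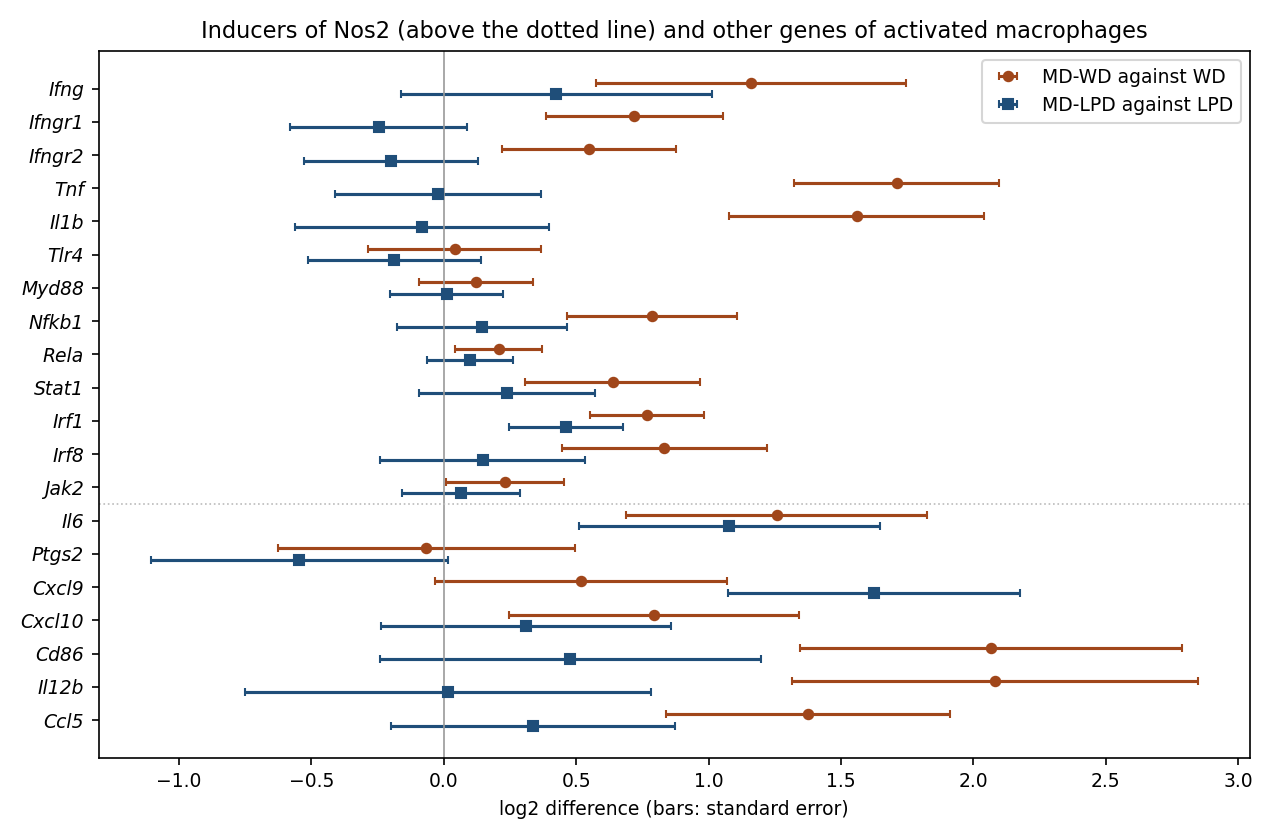
Log2 differences of MD-WD from WD (circles) and of MD-LPD from LPD (squares) for 13 inducers of Nos2 and the further genes of classically activated macrophages, with bars of 1 SE to each side (limma on log2 of the normalised count plus 1). All 13 circles of the inducers lie to the right of 0, led by Tnf at 1.71, and none passed after adjustment.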

How the data were processed

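Total RNA of sperm from 25 males was sequenced in pairs of reads. The authors used Trim Galore 0.6.7 for trimming, HISAT2 2.2.1 for alignment to the mouse assembly GRCm39 and StringTie 2.2.1 for counts per gene, which DESeq2 (version not given in the sources used here) normalised. The deposited signal is a count divided by the library's size factor; dividing by each library's step gave whole reads, within 0.01, for 100% of values. Genes were named from GENCODE vM39 (47034 of 47575 matched), which also gave positions and exonic lengths.

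In R 4.3.3, limma 3.58.1 was fitted to log2 of the normalised count plus 1 with all 25 libraries in 1 model, using empirical Bayes (trend and robust settings). The 28311 genes whose mean reached 5 were kept. It is the main test because the deposited values are normalised, and p was adjusted by Benjamini and Hochberg over all genes at 0.05. Recovered reads were tested with edgeR 4.0.16 (quasi-likelihood) and DESeq2 1.42.0 (Wald). The fits were tested on simulated data first. Intervals are at 95%. No 2 libraries agreed within counting noise.

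Groups follow the titles. Of the 6 males per diet that the study describes, 5 were used here. The labels give no sequencing batch. Nothing beyond the male's number and, in 3 libraries, the treatment field separates the samples of a group. The p-values measure the spread between these males. The members and all gene lists were chosen with earlier results of these data known. Named list genes are those with the lowest p or the highest mean in each list, and named look-alikes are the 5 with the highest Pearson r on the log2 scale. Il1b, Irf1, Gucy1b1 in LPD and genes named for an unadjusted p were named after their values were seen. The values of 1 list gene are not reported here. Alternatives were other pseudocounts (0.5 and 5), filters and scalings, the 2 groups alone, a replicate block, groups from the treatment field, and leaving out libraries. The gene fold floor was 3 counts.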

Additional observations from a re-analysis of the deposited data

Results flagged for a closer look

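Arg1 in LPD 15, at 708 normalised counts, lay far from the other 4 LPD libraries, which had 0 to 27.8, with the gap to its nearest neighbour taking 0.961 of the whole range of the group. Arg2 in CD 10, at 67.4 against 426 to 483 in the other 4 CD libraries, had a gap of 0.862 of the range. Chance alone marks about 1 in 20 groups of this size. Both libraries also had the highest leukocyte marker sums of their groups, 73825 and 59490, and the part of these in the values was not tested.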

How the results depend on the processing

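Depth limits Nos2, since no library held more than 64 of its reads. The choice of tool moved the count of called genes. Against CD, DESeq2 called 140 genes for WD, 68 for MD-WD, 46 for LPD and 18 for MD-LPD, with 16 in MD-LPD against LPD, 15 in MD-WD against WD and 8 for the difference between supplement effects, where limma and edgeR called 0. With no filter limma called 1 gene in MD-WD against CD and 1 in MD-WD against WD, and with the 2 groups alone 1 in MD-WD against CD and 1 in MD-LPD against LPD. Leaving out each library in turn gave 0 to 1 calls for LPD, MD-LPD and WD against CD and for the difference between supplement effects, and 0 in the other comparisons. The lower bounds of the Nos2 fold then ran from 48.1 to 70.7 in MD-WD, 35.0 to 52.2 in WD, 33.5 to 60.4 in MD-LPD and 6.74 to 21.0 in LPD. A filter at a mean of 20 dropped Nos2. None of 1170 values of the other 5 genes over 39 alternative fits passed (lowest adjusted p in limma, edgeR or DESeq2 0.139).

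Log2 differences of members, none of which passed, changed sign in many settings, from values near 0 and, for Arg1 and Nos3, also from larger ones, and the cause was not tested. In LPD against CD, Nos1 was −0.0652 in edgeR and −0.0653 in DESeq2, and Arg2 −0.0819 and −0.0827. In both tools Arg1 was −1.49 in MD-LPD against LPD and 1.83 for the difference between supplement effects. TMM scaling gave 0.069 for Arg2 in MD-LPD and 0.0052 for Nos1 in WD against CD. With equal totals, which moved the median of all genes to −0.28, −0.21, −0.49, −0.17, 0.06 and 0.20, LPD against CD was −0.26 for Nos1, −0.25 for Arg2 and −0.22 for Ass1, MD-LPD against CD −0.041 for Ass1, WD against CD −0.083 and MD-WD against CD −0.035 for Nos3, MD-LPD against LPD 0.029 for Arg2, MD-WD against WD 0.064 for Nos1, 0.048 for Nos3 and 0.14 for Ass1, and the difference between supplement effects 0.12 for Nos1. A pseudocount of 5 gave −0.0020 for Arg2 in LPD against CD.

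Groups from the treatment field gave 0.012 for Arg2 in MD-LPD and 0.11 for Nos1 in WD against CD, and 0.38 for Nos1 in the difference between supplement effects. Without the 3 libraries of disputed diet these were 0.010, 0.040 and 0.27, and Arg1 in LPD against CD was −0.16. Without the 5 libraries that stood apart, LPD against CD was −0.16 for Nos1, −1.43 for Arg1, −0.52 for Arg2 and −0.055 for Ass1, MD-LPD against CD 0.20 for Nos3 and −0.22 for Ass1, WD against CD −0.094 for Arg1, MD-LPD against LPD 0.098 for Arg2 and −0.17 for Ass1, and the difference between supplement effects 0.094 for Ass1. Without MD-WD 14 and 16, chosen after seeing the data, MD-WD against WD was 0.021 for Nos1, −0.18 for Arg1 and 0.019 for Arg2, and the difference between supplement effects 0.13 for Nos1 and 0.041 for Arg2.

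Leaving out each library in turn, LPD against CD ran from −0.38 to 0.22 for Nos1, −1.40 to 0.027 for Nos3, −0.48 to 1.89 for Arg1, −0.55 to 0.23 for Arg2 and −0.17 to 0.22 for Ass1. MD-LPD against CD ran from −0.48 to 0.18 for Nos1 and −0.57 to 0.31 for Arg2, and WD against CD from −0.47 to 0.079 for Nos1. MD-LPD against LPD ran from −0.33 to 0.18 for Nos1, −0.25 to 1.17 for Nos3, −0.24 to 2.13 for Arg1, −0.25 to 0.31 for Arg2 and −0.048 to 0.34 for Ass1. MD-WD against WD ran from −0.33 to 0.073 for Nos1, −0.39 to 0.039 for Nos3, −0.14 to 0.87 for Arg1, −0.52 to 0.015 for Arg2 and −0.20 to 0.10 for Ass1. The difference between supplement effects ran from −0.35 to 0.18 for Nos1, −1.36 to 0.068 for Nos3, −1.75 to 0.62 for Arg1 and −0.54 to 0.038 for Arg2.

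The male's number only names a library. Of 33 pairs with the same number, 12 had a correlation of their deviations over 0.1 (range −0.42 to 0.57, median 0.03), and 4 of 24 libraries were closest to one of their own number. With a replicate block, 0 genes were called in each comparison, and MD-LPD against CD was 0.067 for Nos1 and 0.19 for Arg2, MD-WD against CD 0.10 for Nos1, MD-WD against WD 0.14 for Nos1, −0.056 for Arg1 and 0.12 for Arg2, and the difference between supplement effects 0.20 for Nos1 and 0.15 for Arg2. At an unadjusted p under 0.05 the block fit had 1361, 500, 2748, 1616, 297 and 336 genes in the 6 comparisons. Of 13 inducers of Nos2, 11 were higher in MD-WD than in WD under the block, 3 at that p.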

Other observations

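Of 7 genes of alternatively activated macrophages, 7 were higher in LPD than in CD, 1 at an unadjusted p under 0.05 and none after adjustment, where 4.8% of all genes were higher at that p. The median of the list was 0.69, beside 0.68 for 12 leukocyte markers, of which 10 were higher and 4 at that p. Without LPD 15, which had the highest leukocyte marker sum of all, the median of the 7 genes in LPD against CD was 0.45 and 0 were at that p. The direction was not particular to LPD. In MD-LPD, WD and MD-WD against CD, 6 of 7 were higher in each, 0 at that p, with medians of 0.45, 0.48 and 0.47. Of the 12 leukocyte markers, 12, 10 and 12 were higher in these comparisons. Cd163, a scavenger receptor for haemoglobin on such macrophages, was at 382 ± 145 normalised counts in CD and 1153 ± 1002 in LPD (log2 difference 1.24, SE 0.44, limma adjusted p = 0.561, and 0.83 without LPD 15). Mrc1, the mannose receptor of macrophages, was the most abundant of them, at 1929 ± 600 in CD and 5032 ± 4682 in LPD (0.91, SE 0.50, limma adjusted p = 0.630, and 0.45 without LPD 15). Oaz3, the antizyme of ornithine decarboxylase that is made in spermatids, was the most abundant gene of arginine and ornithine use, at 84821 ± 26994 in CD and 156883 ± 87377 in WD (log2 difference 0.70, SE 0.65, limma adjusted p = 0.555).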
